A study of Mus musculus with 5 samples.

Results

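The receptors through which neurons respond to GABA, glycine and glutamate were followed gene by gene in embryonic mouse forebrain with and without the homeodomain transcription factors Dlx1 and Dlx2. Members were chosen by symbol: every gene with a singly named probe set (a group of array probes that reports 1 transcript region) whose symbol marks a subunit of the GABA-A, GABA-B, glycine, AMPA, kainate, NMDA or metabotropic glutamate receptors. This gave 42 of 18193 genes: 15 GABA-A, 1 GABA-B, 5 glycine, 4 AMPA, 5 kainate, 6 NMDA and 6 metabotropic. The probe set with the highest mean stood for each gene, and 24 of the 42 were bright enough to be tested, among 11063 genes tested in all.

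Total RNA was profiled on 5 mouse expression arrays. All of it came from the ventricular and subventricular zones of the rostral medial ganglionic eminence (MGE), a source of interneurons in the ventral forebrain, at E15.5 (embryonic day). The groups were tissue from wild-type (WT) embryos (1 array), tissue from Dlx1/2 mutant embryos (2 arrays), primary neuronal cultures from WT embryos (1 array) and primary neuronal cultures from Dlx1/2 mutant embryos (1 array). The title of the WT tissue sample gives a genotype that is cut short ("+/"), and the sample was grouped as WT by its description. The sources used here give neither the strain nor the design of the mutant alleles, nor how long the cultures were kept, nor whether embryos were pooled. Nor do they state that the mutant tissue pair came from different embryos: p-values then measure only how far these arrays spread, and that spread may be technical. Only mutant tissue was replicated. The other groups carry no error of their own, and in the tissue and interaction fits their arrays are assumed to vary like the mutant tissue pair. In the model of preparation and genotype over all arrays, the spread also includes how far the genotype difference departs between preparations.

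GABA-A and glycine receptors are chloride channels assembled from several kinds of subunit, while GABA-B receptors are G-protein-coupled heterodimers. Glutamate opens the cation channels of the AMPA, kainate and NMDA families and also acts through metabotropic receptors coupled to G proteins. In the embryonic forebrain GABA and glycine tend to depolarise young cells, and the subunit make-up of both kinds of receptor changes as neurons mature.

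The targeted genes followed the labels in all 5 arrays: Dlx1 had a normalized signal of 3194.9 in WT tissue and 601.7 in WT culture and lay at the floor of 5.15 in all 3 mutant arrays, and Dlx2 read 1082.7 and 339.5 in WT tissue and culture and 12.2 to 22.2 in the mutant arrays. Of 7 MGE markers measured, 4 were lower and none was higher in mutant tissue, and Nkx2-1, which specifies the MGE, read 41.1 in WT tissue and, in the mutant pair, 59.8 and 75.3. Neuronal markers were higher in mutant tissue for 10 of 13 genes and lower for 1, and their summed signal was 15595 in WT and 20522 and 20931 in mutant tissue, with 15541 and 16171 in the WT and mutant cultures. Summed astrocyte and radial glia markers were 10845 in WT and 14609 and 14432 in mutant tissue, and 13799 and 17635 in WT and mutant culture. Oligodendrocyte-lineage markers were higher in mutant tissue for 6 of 7 genes tested, with sums of 2648 in WT and 4482 and 4438 in mutant tissue and 1429 and 2735 in WT and mutant culture. Pallial glutamatergic markers summed to 284 in WT and 445 and 423 in mutant tissue, and to 219 and 324.5 in WT and mutant culture. Of 4 tested, 1 was higher in mutant tissue (Neurod2) and 0 lower. Of those too dim to test, Neurod6, Slc17a6, Slc17a7 and Eomes were above WT in both mutant tissue arrays, and Tbr1 and Emx1 below. Of 11 progenitor markers, 4 were lower in mutant tissue (the proliferation genes Mki67, Top2a, Ccnd1 and Ccnd2) and 2 higher (Nes and Sox2), with sums of 25261 in WT and 22448 and 22915 in mutant tissue. Red blood cell markers, summing to 9475 to 10600 in tissue, were 27.1 and 25.7 in culture, and endothelial markers summed to 926 to 1109 in tissue and to 162 and 237 in culture. In whole-tissue RNA, fewer cells of a type and less RNA per cell cannot be told apart. Xist, transcribed from the inactive X chromosome, read 637 in WT tissue and, in the mutant pair, 104 and 136, and 327 (WT) and 99.4 (mutant) in culture. The Y-linked genes Kdm5d, Eif2s3y and Uty were higher in every mutant array than in the WT array of its preparation. In tissue Kdm5d read 45.9 in WT and 156.4 and 125.8 in mutants, and Eif2s3y 34.7 and then 170.5 and 173.4. Uty read 43.1 in WT and 80.4 and 73.9 in mutant tissue. The sources used here do not give the embryos' sex, and its part in the genotype differences was not tested.

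To show what lies upstream of members described below, the 250 bases before the transcription start are shown for 4 members that passed a test and whose listed start is the outermost start of the gene. The sequences are RefSeq's, build GRCm38.p6, for Gabbr1 (chr17:37045716-37045965, plus strand), Gabra3 (chrX:72656920-72657169, minus strand) and Glrb (chr3:80913661-80913910, minus strand), which were higher in mutant tissue, and Gabrg1 (chr5:70842618-70842867, minus strand), which was higher in culture. The array probes were not placed on any build here. Capitals mark matches, on either strand, to TAATTA (a core bound by many homeodomain proteins), CAGCTG (an E-box), TGACGTCA (the cAMP response element) or GGGCGG (the GC box).
Gabbr1: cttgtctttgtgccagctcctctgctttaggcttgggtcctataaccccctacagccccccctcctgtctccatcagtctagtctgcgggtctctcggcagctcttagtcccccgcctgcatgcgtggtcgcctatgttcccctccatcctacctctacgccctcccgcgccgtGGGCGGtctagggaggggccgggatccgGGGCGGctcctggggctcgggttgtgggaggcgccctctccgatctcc
Gabra3: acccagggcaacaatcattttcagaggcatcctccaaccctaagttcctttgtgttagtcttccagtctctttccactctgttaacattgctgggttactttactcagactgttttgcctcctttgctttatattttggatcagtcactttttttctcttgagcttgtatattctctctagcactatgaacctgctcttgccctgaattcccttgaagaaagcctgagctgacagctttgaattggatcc
Glrb: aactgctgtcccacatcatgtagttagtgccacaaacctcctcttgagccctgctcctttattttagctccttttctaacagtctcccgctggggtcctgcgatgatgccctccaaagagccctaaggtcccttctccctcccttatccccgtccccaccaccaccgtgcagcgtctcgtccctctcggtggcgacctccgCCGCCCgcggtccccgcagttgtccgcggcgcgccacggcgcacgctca
Gabrg1: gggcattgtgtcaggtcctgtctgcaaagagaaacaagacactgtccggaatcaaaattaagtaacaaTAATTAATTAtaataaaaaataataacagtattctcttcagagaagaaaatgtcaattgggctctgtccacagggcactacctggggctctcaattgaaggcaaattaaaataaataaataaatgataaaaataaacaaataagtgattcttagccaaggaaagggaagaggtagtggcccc
In Gabrg1, TAATTA was found at 182 and 178 bases before the start, as overlapping copies. Of the 32 members with such a window in the table, this was the 1 with TAATTA, against 4.84% of all 32851 windows (some genes have more than 1 window). GC boxes were found at 2 places in Gabbr1 and 1 in Glrb, and in 19 of the 32 members, against 32.7% of all windows. The window of Grik3, which fell in mutant tissue, held 6 GC boxes and no TAATTA and was 82.0% G and C, against a median of 52.4% over all windows; it lies within the gene's annotated transcribed span and is not shown. CAGCTG was found in Gabrp and Glra3 and TGACGTCA in 0 of the 32, against 13% and 1.55% of windows. A match is only a run of letters, and the matches were not tested for binding or for a link with the signals.

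Signal strength set which subunits could be followed. No member was at the floor in all 5 arrays, but 13 of the 18 members not tested were at the floor in at least 1 array, and 13 had their highest signal below the level that separated tested from untested genes (27.8). The untested members were Gabra6, Gabrd, Gabre, Gabrg3, Gabrq, Gabrr1 and Gabrr2 of the GABA-A receptors, Glra1, Glra3 and Glra4 of the glycine receptors, Grik1, Grin2a, Grin2c, Grin2d, Grin3b, Grm2, Grm3 and Grm8. Such subunits include Gabra6 and Gabrr1, which are known mainly from cerebellar granule cells and retina, with highest signals of 11.3 and 10.8. Grm3, a group II metabotropic receptor, was too dim to test and is named outside the rules given below. It read 33.3 in WT tissue and 15.7 and 5.70 in mutant tissue, a gap of 1.46 (log2) between the mutant arrays. In the WT and mutant cultures it read 27.7 and 41.6. The filter used the mean over all arrays, so a gene low in tissue could pass through culture alone; counts over tested members are therefore a description. Between the mutant tissue arrays the absolute log2 gap had a median of 0.18 over the 24 tested members and 0.14 over all genes tested, and it was widest for Gabra4 (1.82).

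**Figure D1:**
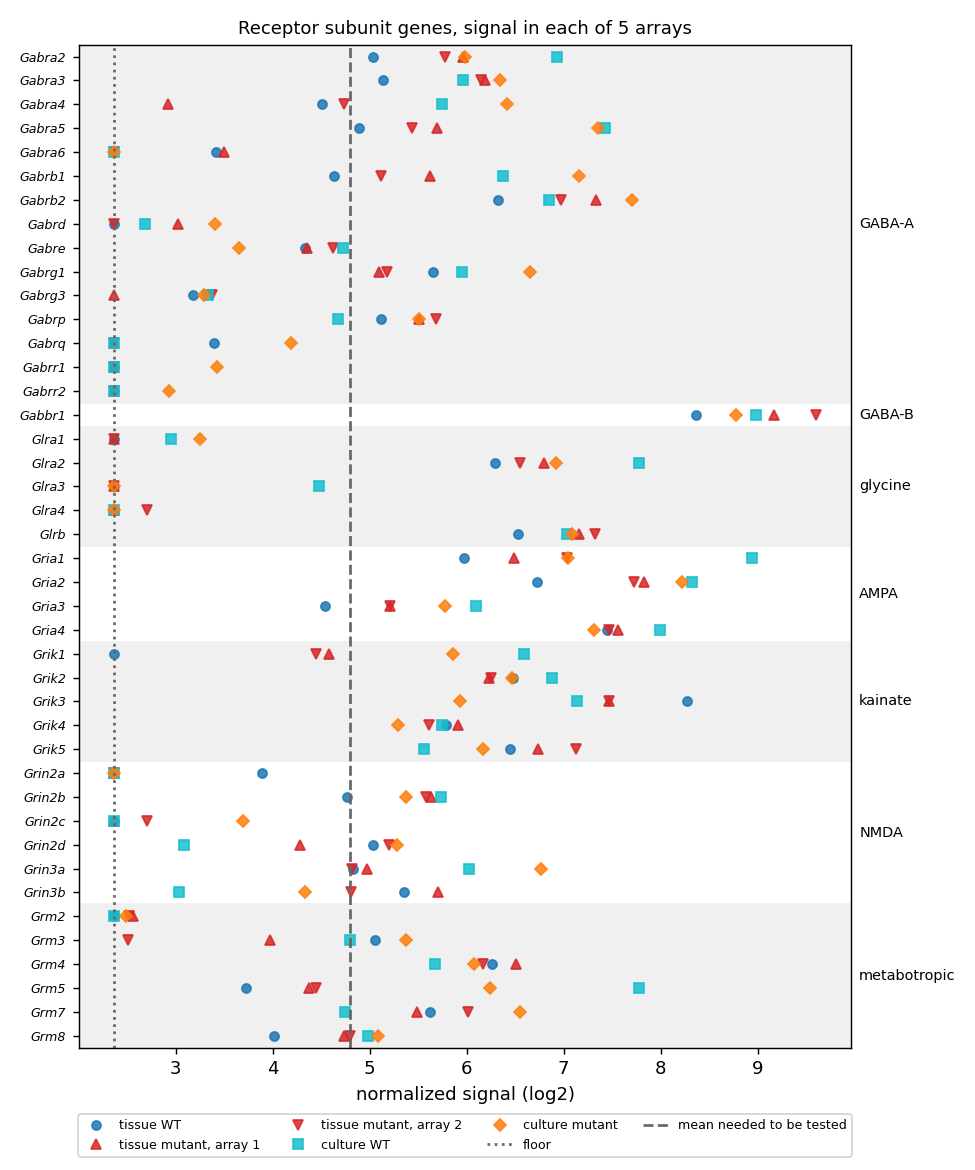
Normalized signal (log2) of all 42 receptor genes in each of the 5 arrays, grouped by receptor class; the dotted line is the floor (2.36) and the dashed line the mean a gene needed to be tested (4.80). Gabbr1 has the highest level in mutant tissue, 575 and 778 on the linear scale, while Glra4 and Grm2 stay near the floor in every array.

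In mutant tissue, receptor genes of several classes were higher than in WT tissue. Of the 24 tested, 5 rose (Gabbr1, Gabra3, Gabrb2, Glrb and Gria2) and 1 fell (Grik3), by limma with Benjamini-Hochberg adjustment. Over all genes tested, 8.59% rose and 6.70% fell, and among the members the shares were 5 of 24 (20.8%) and 1 of 24 (4.17%). The median difference was 0.58 (log2, mutant minus WT) over the 24 and 0.00 over all genes tested; over all 42 members, dim ones included, it was 0.17 against 0 for all 18193 genes. Both mutant arrays lay above WT for 16 of the 24 and below it for 3, where 40.8% and 40.2% of all genes tested did so. Neuronal, astrocyte and oligodendrocyte-lineage markers and the summed pallial glutamatergic markers were higher in the same arrays and the proliferation genes lower, as given above. The part of all these markers in the receptor differences was not tested. The WT tissue array enters every one of these differences. All 6 calls were lost when the variance prior ignored signal strength (adjusted p of 0.11 to 0.17) and when dim genes were tested too (0.12 to 0.37), and 5 of the 6 when a gene's probe sets were averaged.

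Among GABA receptors the clearest tissue difference was in Gabbr1, the subunit of the GABA-B receptor that binds GABA. Its signal was 328 in WT and 575 and 778 in mutant tissue, then 506 in the WT and 439.5 in the mutant culture. Both mutant tissue arrays were above the WT array, and the mutant culture was not above WT culture. The tissue difference was 1.03 ± 0.16 (SE; 2.04-fold, adjusted p = 0.00094). Its other 2 probe sets above the filter differed by 0.31 and 1.11 in tissue, and with a gene's probe sets averaged the difference was 0.36 (adjusted p = 0.31).

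Gabra3, an alpha subunit common in immature forebrain, read 35.1, 73.0 and 70.7 in the tissue arrays (WT, then both mutants) and 62.3 and 81.0 in the culture arrays (WT, then mutant). WT tissue was the lowest of the 5 arrays. The rise in tissue was 1.03 ± 0.30 (adjusted p = 0.040), and its dim second probe set read 21.6 and 20.4 in mutant tissue and lay at the floor in WT tissue. Gabra3 lies on the X chromosome, and the part of the Xist difference was not tested. Gabrb2, a beta subunit, read 79.8 in WT tissue and, in the mutant pair, 161 and 125, and 115 (WT) and 209 (mutant) in culture. Mutants were above their own WT in both preparations, by 0.83 ± 0.23 in tissue (adjusted p = 0.028) and by 0.86 in culture. Across both preparations the difference in Gabrb2 was 0.84 ± 0.18, short of the threshold (adjusted p = 0.090). Of its 5 probe sets, all above the filter, all differed upwards in tissue (0.24 to 0.83), and 1 differed by −0.53 in culture.

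The other GABA-A members tested did not pass in tissue. Gabra2, Gabra5 and Gabrb1 differed by 0.83, 0.68 and 0.73 (adjusted p of 0.12, 0.26 and 0.28), and Gabrp, the pi subunit, by 0.47 (adjusted p = 0.42). Gabrg1, a gamma subunit, and Gabra4 differed the other way, by −0.52 and −0.68 (adjusted p of 0.40 and 0.62). The mutant arrays of Gabra4 were 7.56 and 26.7, on either side of the WT value of 22.8, and the difference was 0.22 without mutant tissue replicate 1.

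Glrb, the beta subunit that joins glycine receptors to the scaffold protein gephyrin, read 92.0 in WT and 143 and 160 in mutant tissue, then 131 in the WT and 135 in the mutant culture. WT tissue was again the lowest array, and the rise in tissue was 0.72 ± 0.20 (1.64-fold, adjusted p = 0.033), with 0.05 in culture. Glra2, the main alpha subunit of embryonic glycine receptors, differed by 0.38 in tissue (adjusted p = 0.32). Glrb and Gria2 are neighbouring protein-coding genes in RefSeq's order, and both rose in mutant tissue.

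Gria2 encodes the AMPA receptor subunit whose edited form limits calcium entry. It read 106, 227 and 212 in the tissue arrays (WT, then both mutants) and 319 and 299 in the culture arrays (WT, then mutant). The mutant tissue arrays were close to each other, and WT tissue was the lowest array. The rise was 1.05 ± 0.18 (2.07-fold, adjusted p = 0.0015), and it passed with a gene's probe sets averaged (0.92, adjusted p = 0.044), the 1 call of the 6 that did. Its probe sets were not alike, however: the second differed by 1.71 in tissue and the third by 0.01. Gria1, Gria3 and Gria4, the other AMPA subunits, differed by 0.79, 0.67 and 0.07 in tissue (adjusted p of 0.073, 0.34 and 0.83); with probe sets averaged, Gria3 and Gria4 differed by −0.22 and −0.28. Gria1 passed with the deposited scaling kept (adjusted p = 0.049) and with the stricter filter on dim genes (0.036).

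Grik3, which encodes the kainate receptor subunit GluK3, was the member that fell. It measured 309 in WT tissue and, in the mutant pair, 177 and 176, and 140 (WT) and 61.1 (mutant) in culture. Every mutant array was below the WT array of its preparation, and the mutant tissue arrays were nearly equal. It fell by 0.81 ± 0.16 in tissue (adjusted p = 0.0046) and the log2 difference between the cultures was −1.20. Across both preparations Grik3 fell by 0.98 ± 0.17 (1.97-fold, adjusted p = 0.044), the 1 call among the 24 members, where 1.07% of all genes tested passed: 0.253% fell and 0.814% rose. Grik3 no longer passed without mutant tissue replicate 1 (adjusted p = 0.18) or replicate 2 (0.19), with fitted differences of −1.006 and −1.003. Its other probe set lay at the floor in every array. The other kainate subunits tested did not pass: Grik2, Grik4 and Grik5 differed by −0.24, −0.03 and 0.49 in tissue (adjusted p of 0.57, 0.97 and 0.20), and Grik2 by 0.21 with probe sets averaged.

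No NMDA or metabotropic member passed in either genotype comparison. Grin2b, the NMDA subunit that predominates before birth, read 27.3 in WT tissue and, in the mutant pair, 49.5 and 47.7 (difference 0.83, adjusted p = 0.16), with a second probe set above the filter that differed by 1.12. Grin3a differed by 0.07, Grm4 by 0.08, Grm7 by 0.13 and Grm5 by 0.69 in tissue, with adjusted p of 0.50 to 0.94. Across both preparations 16 of the 24 tested members lay above 0 (median 0.28, against 0.00 over all genes tested). All 3 mutant arrays were above the WT array of their preparation for 6 of the 24 (Gabra3, Gabrb1, Gabrb2, Gabrp, Glrb and Grik5) and below it for 2 (Grik2 and Grik3), where 22.9% and 20.6% of all genes tested were.

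**Figure D2:**
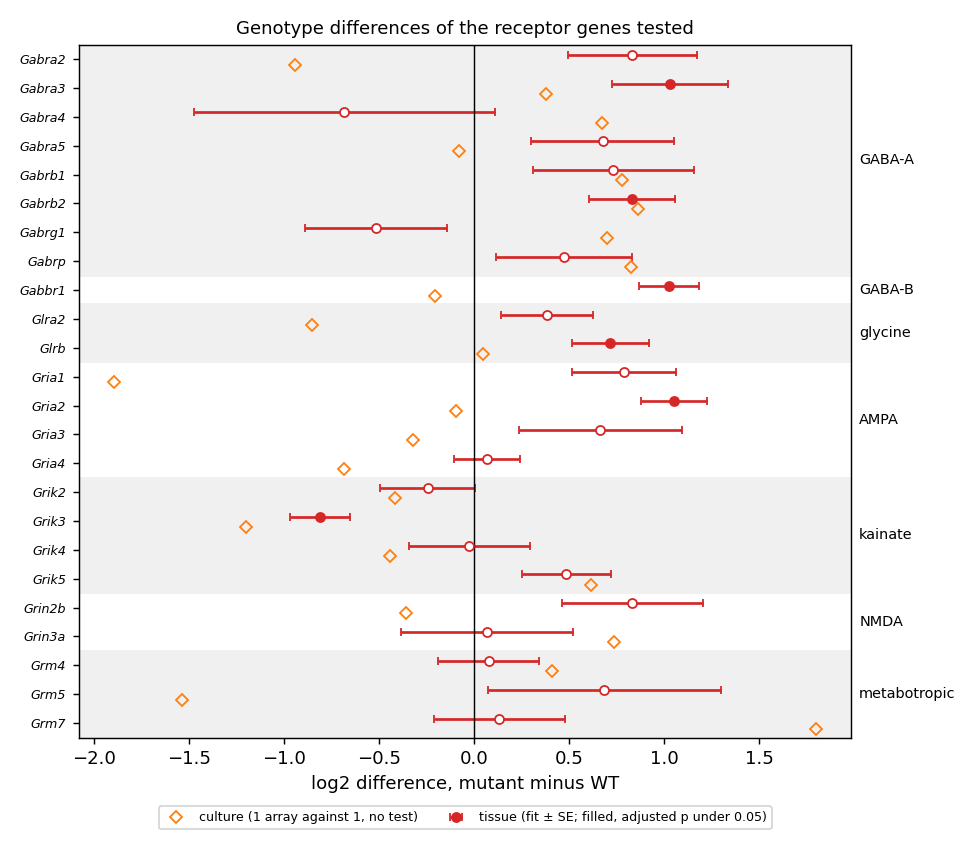
Mutant minus WT differences (log2) of the 24 receptor genes tested; circles are the tissue fit with its SE, filled where the adjusted p was under 0.05, and open diamonds the direct difference between the culture arrays. Tissue values lie mostly to the right of 0 while several culture values, down to −1.90 for Gria1, lie to the left.

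Between the culture arrays, 1 of each genotype and therefore without a test, 4 of the 24 members differed by at least 2-fold, where 3.68% of all genes tested did so (1.85% higher and 1.83% lower in the mutant). Grm7, a presynaptic metabotropic receptor of group III, was higher in mutant culture, and Gria1, Grm5 and Grik3 were lower. Gria1 read 492 in WT culture and 132 in mutant culture (−1.90, 3.72-fold). Grm5, the group I metabotropic receptor that acts through phospholipase C, read 219 and 75.5 (−1.54, 2.90-fold), and its dimmer second probe set read 79.5 and 46.2. Grm7 read 26.9 in WT culture and 93.6 in mutant culture (1.80), outside the range of the tissue arrays (44.8 to 64.6) on both sides; its other 2 probe sets lay at or near the floor. Grin2d, an NMDA subunit known from interneurons and not bright enough on average to be tested, read 8.47 in WT culture and 38.9 in mutant culture. It read 32.8 in WT tissue and, in the mutant pair, 19.4 and 36.8, and its second probe set differed by −0.02 between the cultures. The median over the tested members was −0.09 in culture, against 0.01 over all genes tested.

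For 3 members the culture difference departed from the tissue difference beyond the spread of the fit, by a test of the difference itself (an interaction term, culture difference minus tissue difference). Of all genes tested, 4.48% passed, 2.27% with a value below 0 and 2.21% above. All 3 were more positive in tissue than in culture. The largest was in Gria1, which read 62.8 in WT and 89.8 and 131 in mutant tissue, then 492 in the WT and 132 in the mutant culture. WT culture stood far above the other arrays, and the interaction was −2.69 ± 0.37 (adjusted p = 0.0053). Its second probe set gave −2.62. Gabbr1 had an interaction of −1.23 ± 0.25 (adjusted p = 0.027) and Gria2 of −1.15 ± 0.24 (adjusted p = 0.029), each with mutant culture slightly below WT culture. The third Gria2 probe set gave an interaction of 0.19, so the direction was not shared by all probe sets. Gabra2 and Glra2 also had values below −1 and missed the threshold (−1.78 and −1.24, adjusted p of 0.059 and 0.071). Grm5 had an interaction of −2.22, but it was tested only through its culture values, so this is a description and its p is not given.

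By their brightest probe sets, all 4 AMPA subunits had interactions below 0 (−2.69 to −0.75), while the GABA-A members tested ranged from −1.78 to 1.36. Interactions lay above 0 for 49.8% of all genes tested and for 9 of the 24 members. The 4 AMPA values come from the same arrays and are not independent. The sign was not shared by all AMPA probe sets: the third of Gria2 gave 0.19 and the dim second of Gria3 gave 1.44. In 10 of the 24 members both mutant tissue arrays were above WT and the mutant culture was below, where 17.9% of all genes tested did so; these were Gabbr1, Gabra2, Gabra5, Glra2, Gria1, Gria2, Gria3, Gria4, Grin2b and Grm5. Gabrg1 alone among the members tested did the reverse, where 19.4% of all genes tested did. The summed neuronal markers were higher in mutant than WT tissue and differed little between the culture arrays (15541 and 16171). Single markers moved both ways between the cultures. Of 13, 1 was at least 2-fold higher in mutant culture (Gap43, 836 in WT and 1928 in mutant). Only 1 other, Snap25, passed 2-fold, and it was lower (984 in WT and 426 in mutant). An interaction below 0 was called for 7 of the 13 neuronal markers and above 0 for 0. Their part in the receptor interactions was not tested. All 3 interaction calls were lost with a gene's probe sets averaged (adjusted p of 0.09 to 0.23), without the intensity trend (0.24 to 0.31) and with dim genes tested (0.2 to 0.43).

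**Figure D3:**
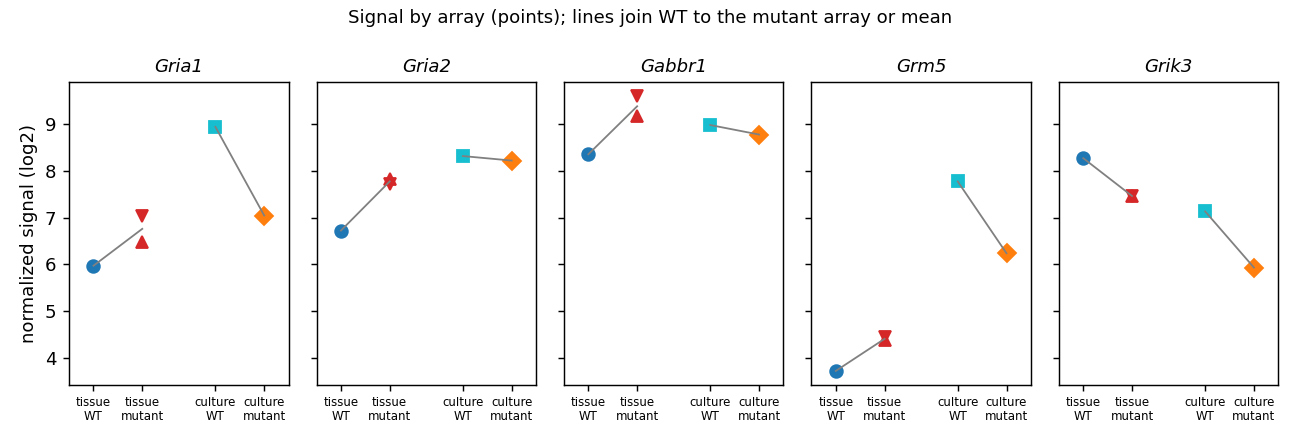
Normalized signal (log2) of Gria1, Gria2, Gabbr1, Grm5 and Grik3 in each array, by preparation and genotype; lines join the WT array to the mutant array or, in tissue, to the mean of the mutant arrays. Gria1 and Grm5 slope up in tissue and down in culture, Gria2 and Gabbr1 up in tissue and nearly flat in culture, and Grik3 down in both.

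Between culture and tissue, several GABA-A subunits, Gria2 and Grin3a were higher in culture and the kainate subunits Grik3 and Grik5 were lower, while the share of members called was near that of all genes. In the model of preparation and genotype over 5 arrays, 8 of the 24 members were higher in culture and 2 lower, against 19.6% and 19.2% of all genes tested. Those higher were Gabra4, Gabra5, Gabrb1, Gabrb2, Gabrg1, Gria2, Grin3a and Grm5, and those lower were Grik3 and Grik5. Gabra4 and Grm5 passed the filter on dim genes only through culture, so they had to be higher there; without such genes, 6 of 22 members were higher, against 19.1% of the other genes tested. Both culture arrays were above all 3 tissue arrays for 11 of the 24, with Gabra4 and Grm5 among them, and below them for 3 (Grik3, Grik5 and Grm4). Of all genes tested, 29.6% and 29.2% were. The share of members called either way was 41.7%, against 38.8% of all genes tested, and 36.4% against 38.5% without such genes. Over all 42 members the median culture minus tissue difference was 0.40 in WT and 0.30 in mutants, against 0 over all 18193 genes in each. Blood and endothelial markers were far lower in culture, as given above, and of 13 neuronal markers 4 were higher and 6 lower; their part in the receptor differences was not tested.

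Within the GABA-A class, 5 of 8 tested members, Gabra4 among them, were called higher in culture and none lower. Called higher were also 1 AMPA, 1 NMDA and 1 metabotropic member (Grm5), of 4, 2 and 3 tested. Of all genes tested, 19.6% were called higher. Gabra4 and Grm5 passed the filter only through culture, so these class counts are a description. Gabra5, the alpha subunit of extrasynaptic receptors known from hippocampus, read 29.6, 51.7 and 43.4 in the tissue arrays (WT, then both mutants) and 172 and 163 in the culture arrays (WT, then mutant). Both culture arrays were far above every tissue array. The difference was 2.11 ± 0.26 (4.31-fold, adjusted p = 0.00062), and it kept its call under every alternative setting tried. Gabrb1 read 24.9, 49.3 and 34.7 in WT and mutant tissue and 83.0 and 142 in WT and mutant culture (1.76 ± 0.28, adjusted p = 0.0019). Gabra4 read 22.8, 7.56 and 26.7 in tissue and 53.7 and 85.6 in culture. Its tissue values all lay below the level needed for testing, so it was tested only through its culture values, and the difference of 2.01 ± 0.61 is a description. Its dim second probe set was at the floor in 2 of the 3 tissue arrays and differed by 2.47. Gabrg1 read 50.4, 34.3 and 36.3 in tissue and 62.0 and 100.8 in culture (0.99 ± 0.33, adjusted p = 0.047). Gabrb2 had the smallest called rise (0.54 ± 0.18, adjusted p = 0.048), and its WT culture array lay below both mutant tissue arrays. Without mutant tissue replicate 1 or 2, neither Gabrg1 (adjusted p = 0.12 and 0.11) nor Gabrb2 (0.074 and 0.17) passed.

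Several of these GABA-A genes lie side by side. In RefSeq's gene order Gabrg1 is followed by Gabra2, and Gabra4 by Gabrb1; all of them were higher in both culture arrays than in all 3 tissue arrays, a pattern counted above. Gabra2, at 32.8 in WT tissue and, in the mutant pair, 62.4 and 54.7, and 122 (WT) and 63.4 (mutant) in culture, barely cleared the mutant tissue arrays and missed the threshold (0.88 ± 0.39, adjusted p = 0.11). Gabra5 follows Gabrg3, which read 5.15 to 10.4 in all arrays and was not tested.

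Among glutamate receptors Grm5 had the largest preparation difference. It read 13.2 in WT and 20.7 and 21.8 in mutant tissue, then 219 in the WT and 75.5 in the mutant culture. All tissue values lay below the level needed for testing, so Grm5 was tested only through its culture values, and its p is not given. The difference was 2.78 ± 0.49 (6.88-fold), with 4.05 in WT and 1.83 in mutants. Its second probe set differed by 2.38. Grin3a, an NMDA subunit that lowers calcium permeability, read 28.4, 31.4 and 28.3 in tissue and 65.2 and 109 in culture (1.58 ± 0.31, adjusted p = 0.0052). Gria2 was higher in culture by 0.94 ± 0.25 (adjusted p = 0.018), by 1.59 in WT and 0.45 in mutants. Gria1, with 2.97 in WT and 0.29 in mutants, missed the threshold (1.44 ± 0.51, adjusted p = 0.058). Without mutant tissue replicate 2, and with the same probe set, Gria1 passed (1.77, adjusted p = 0.020).

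Both members lower in culture were kainate subunits. Grik3 was lower in culture by 1.36 ± 0.17 (adjusted p = 0.00065; a fall by 1.14 in WT and 1.53 in mutants). Grik5, a kainate subunit that needs a partner to form channels, read 87.0, 106 and 140 in the tissue arrays (WT, then both mutants) and 47.0 and 72.1 in the culture arrays (WT, then mutant). Both culture arrays were below all tissue arrays, and the difference was −0.81 ± 0.22 (adjusted p = 0.021; 0.095 without mutant tissue replicate 2). Grik2 and Grik4 differed by 0.31 and −0.28 (adjusted p of 0.26 and 0.46), and Grik2 by −0.76 with probe sets averaged. Grik1, named here after its values were seen, was at the floor in WT tissue and read 24.0 and 21.9 in the mutant pair, 96.5 in the WT culture and 57.9 in the mutant one. Against the floor this was at least 4.45-fold higher in mutant than WT tissue and at least 18.7-fold higher in WT culture than WT tissue. Its mean (4.77) fell just short of the 4.80 needed for testing. Glra3, also named after its values were seen, read 22.3 in WT culture and lay at the floor elsewhere; its second probe set was above the floor only in mutant tissue replicate 2 (12.5).

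**Figure D4:**
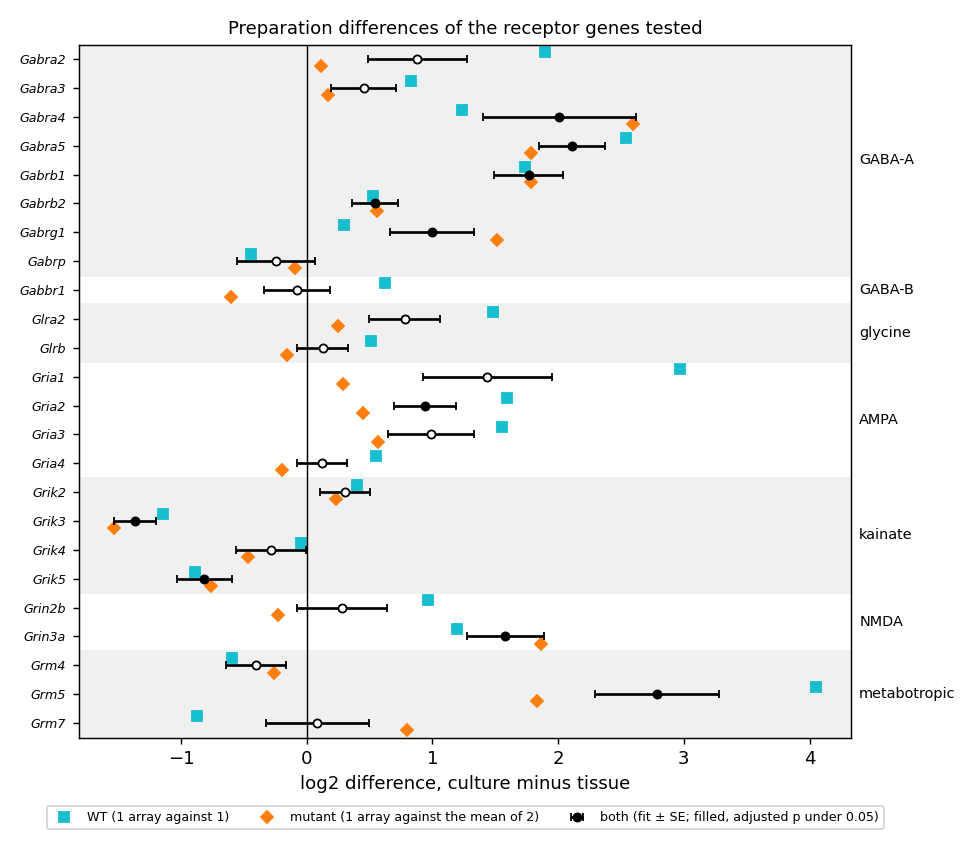
Culture minus tissue differences (log2) of the 24 receptor genes tested; circles are the fit over both genotypes with its SE, filled where the adjusted p was under 0.05, squares the WT arrays and diamonds the mutant arrays. Grm5 and Gabra5 lie farthest to the right among called members and Grik3 farthest to the left, and the WT squares of Gria1 and Grm5 lie far from the mutant diamonds.

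Proteins that anchor, traffic or tune these receptors were read from 4 lists chosen alongside the members. No gene of these lists passed across both preparations, by limma with Benjamini-Hochberg adjustment: 0 of 19, 24, 20 and 8 genes tested, of which 5, 5, 3 and 4 had an unadjusted p under 0.05. In mutant tissue 5, 5, 3 and 3 genes passed, where 8.59% of all genes tested rose and 6.70% fell. These counts became 0, 0, 1 and 0 when dim genes were tested too, 1, 1, 1 and 0 with probe sets averaged, and 0 in each list without the intensity trend. Of 19 tested partners of GABA and glycine receptors, 5 rose and 0 fell in mutant tissue: Kctd8, an auxiliary subunit of GABA-B receptors (2.09, adjusted p = 0.0010), the vesicle fusion ATPase gene Nsf (0.70), the receptor-trafficking genes Gabarapl1 (0.47) and Trak1 (0.63), and Lhfpl4, which helps cluster GABA-A receptors (0.55, adjusted p = 0.046). Gphn, the gephyrin gene, differed by 0.31 in tissue (adjusted p = 0.19). Its signal ranged from 223 to 286 over the 5 arrays. In culture 3 of the 19 were higher than in tissue and 1, the trafficking gene Gabarapl2, was lower (−0.44, adjusted p = 0.0073). Over all genes tested, 19.6% were higher and 19.2% lower in culture.

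Of 24 tested partners of AMPA and kainate receptors, 3 rose and 2 fell in mutant tissue. Cacng7, which encodes a transmembrane AMPA receptor regulatory protein, read 19.1 in WT tissue and, in the mutant pair, 58.9 and 67.3, and 71.8 and 30.9 in WT and mutant culture. Its interaction of −2.94 (adjusted p = 0.017) ran the same way as that of Gria1. Lrrtm4, a postsynaptic adhesion gene, rose by 1.66 in mutant tissue (adjusted p = 0.0011) with an interaction of −2.22 (adjusted p = 0.016). The 3 interaction calls of this list, both genes among them, were 0 when dim genes were tested too, with probe sets averaged and without the trend. Neto1 and Neto2 encode auxiliary subunits of kainate receptors: Neto1 fell by 0.90 in mutant tissue (adjusted p = 0.034) and Neto2 rose by 0.44 (adjusted p = 0.017). Syndig1, an AMPA receptor-binding protein gene, fell by 1.11 (adjusted p = 0.040). Culture was above tissue for 5 of the 24 and below it for 0, where 19.6% and 19.2% of all genes tested were. Syndig1 (1.30, adjusted p = 0.0048) and Shisa6, an AMPA receptor auxiliary subunit gene, were among the 5. Shisa6 read 10.9 in WT tissue and 19.8 and 14.6 in mutant tissue, all below the level needed for testing. It was tested only through its culture values and had to be higher there, so its difference of 2.34 is a description.

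Of 20 tested partners of NMDA and metabotropic receptors, 3 rose and 0 fell in mutant tissue, and 6 and 7 passed with the deposited scaling kept and with the stricter filter. The 3 were Cask, a membrane scaffold gene (1.32, adjusted p = 5.6e-05), Camk2a, a kinase of the postsynaptic density (1.44, adjusted p = 0.0013), and Dlgap3, a scaffold gene (1.19, adjusted p = 0.0062). Dlg4, the gene of the scaffold PSD-95, read 67.2 in WT tissue and, in the mutant pair, 99.9 and 135 and missed the threshold (0.79, adjusted p = 0.055). Culture was above tissue for 4 of the 20 and below it for 2, where 19.6% and 19.2% of all genes tested were. The highest of these differences was in the scaffold gene Dlgap1 (1.58, adjusted p = 0.00090).

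The chloride transporters set whether GABA and glycine depolarise a cell. Slc12a5, the potassium-chloride exporter that rises as neurons mature, read 75.2 and 85.6 in mutant tissue, both above WT tissue, and 142 (WT) and 192 (mutant) in culture. It was higher in culture by 1.37 (adjusted p = 0.0012) and did not pass in tissue (0.68, adjusted p = 0.12). Slc12a2, the importer that loads young neurons with chloride, ranged from 825 to 993 over all 5 arrays and passed in no comparison. Of the 8 transporter and kinase genes tested, 2 rose in mutant tissue (Wnk3 and Stk39) and 1 fell (Slc12a7). Their differences were 0.59, 0.87 and −0.60, with adjusted p of 0.019, 0.012 and 0.029.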

How the data were processed

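Total RNA from 5 samples was measured on Affymetrix mouse arrays. The deposited values are linear intensities, 1 per probe set, and in the deposited table each array has the same 2% trimmed mean (150.00); the sources used here do not name the software behind them, and no detection call entered the analysis. Array medians ran from 26.21 to 29.76. Precision is limited by the number of arrays. Of 45101 probe sets, 34958 carry 1 gene symbol in the platform annotation.

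The deposited intensities were quantile normalized over the 5 arrays, floored at the pooled 20th percentile (5.15) and taken to log2, and levels in the text are these signals on the linear scale. The probe set with the highest mean stood for a gene, and genes with a mean log2 above the pooled median (4.80) were tested. limma 3.58.1 (R 4.3.3; lmFit, eBayes with an intensity trend) gave log2 differences, SEs and p-values adjusted by Benjamini-Hochberg over 11063 genes, at a threshold of 0.05. One model of preparation and genotype over the 5 arrays gave the differences across preparations and between culture and tissue (2 residual degrees of freedom). The tissue comparison used the 3 tissue arrays and the interaction a model of the 4 groups (1 residual degree of freedom each). The comparisons share arrays and are not independent. The procedure was run on simulated data in which a change was added to all mutant arrays alike. The simulated noise followed signal strength, as the fits assume. No preparation difference or interaction was simulated, so the simulation cannot speak for those comparisons or for that assumption. Alternatives changed the scaling, floor, filter, choice of probe set and variance prior, or left out a mutant tissue array.

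Named with all values were members called in any tested comparison, members past 2-fold between the cultures whose brighter value lay above the filter, and the obligatory subunits Gabbr1 and Glrb; Gabbr2 and Grin1 were not analysed here. Partner genes were named where called, up to 6 a list by smallest p, with Slc12a2, Slc12a5, Gphn and Dlg4 whatever their values. The members and all gene lists were chosen with earlier results of these data known. Promoter windows came from RefSeq's table for GRCm38.p6, in which 32 of the 42 members had an entry, and were searched on both strands.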

Additional observations from a re-analysis of the deposited data

Results flagged for a closer look

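For 3 receptor genes the difference between mutant and WT was not the same in culture as in tissue, by limma's test of the interaction with Benjamini-Hochberg adjustment. The log2 interaction (culture difference minus tissue difference) was −2.69 in Gria1 (adjusted p = 0.0053), −1.23 in Gabbr1 (adjusted p = 0.027) and −1.15 in Gria2 (adjusted p = 0.029). In all 3, both mutant tissue arrays were above WT tissue and the mutant culture array was below WT culture. The culture difference was −1.90 in Gria1 but only −0.20 in Gabbr1 and −0.10 in Gria2. The other Gria2 probe sets differed by 0.02 and 0.20 in culture, so Gria2 was not lower there by every probe set. The culture values rest on 1 array a genotype, and the WT tissue value also rests on 1 array.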

How the results depend on the processing

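Counts of receptor genes called depended on the settings, and of 734 member values under alternatives 27, of 22 results, changed sign, none of them a called result. Across preparations the 1 call became 0 without the filter on dim genes, with a gene's probe sets averaged and without the intensity trend, and 0 to 0 without either mutant tissue array. In tissue the 6 calls became 2 without the filter (other, dim genes, Gabrq and Grin2a), 1 with probe sets averaged and 0 without the trend. Between culture and tissue the 10 calls became 3 without the filter, Glra1 newly among them, and 5 with probe sets averaged, Gria1 newly among them. They were 9 to 9 without either mutant tissue array, with Grik1 newly called each time and Gria1 without replicate 2. Leaving out an array also let the probe set of Gria1, Glrb and Grin2b and the genes tested change; with both kept, an alternative chosen after seeing the data, the counts were 8 to 8 between culture and tissue and 0 to 0 across preparations, where Grik3 had an adjusted p of 0.20 and 0.15. The 3 interactions became 5 without the filter (other, dim genes), 5 with the stricter filter, and 0 both with probe sets averaged and without the trend. The 4 members past 2-fold in culture became 11 without the filter. Over all genes, counts of higher and lower calls in tissue were 950 and 741, against 11 and 378 without the filter, 269 and 220 with probe sets averaged and 0 and 2 without the trend. Across preparations they were 90 and 28, against 0 and 0, 24 and 11, and 1 and 3, and 18 and 17 or 18 and 18 without mutant tissue replicate 1 or 2. Interactions above and below 0 were 245 and 251, against 393 and 191, 0 and 4, and 0 and 0. Apart from what the alternative itself removes or adds, the cause was not tested. Without either mutant tissue array the tissue and interaction fits have no residual degrees of freedom and gave values only. No paired analysis was possible because only 1 group has more than 1 array. Dim members near the floor, with no detection call, have no dependable fold.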
